A study of Mus musculus with 54 samples.

Results

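RNA-seq was performed on brain RNA of male APPSWE mice that received Cmpd60, a selective inhibitor of the histone deacetylases HDAC1 and HDAC2, or vehicle. There were 5 libraries in each group, together 10 of the 54 libraries of the series. APPSWE mice carry a transgene of human amyloid precursor protein with the Swedish mutation on a BL6 background, and both groups carried it. They were 6 to 7 months old, were housed singly, received 22.5 mg/kg Cmpd60 or the DMSO, PEG400 and saline vehicle intraperitoneally every day for 14 days, and were fasted overnight before tissue was taken. Transgene-negative littermates, 5 given Cmpd60 and 5 given vehicle at the same ages, and the brains of 20-month-old mice, 6 given Cmpd60 and 6 given vehicle, served for comparison. Each library is named by its library number (s139 and so on), and the labels do not say which part of the brain was used. Membership was taken from the treatment of each library, and the description centres on the 10393 of 23273 tested genes whose mean level over the 10 APPSWE libraries was at least 10 counts per 1000000 counted reads (CPM), of which 171 had no symbol.

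One assignment differed between sources. The title, source name and treatment label of library s139 all give vehicle, whereas a column heading in the study's expression table gives compound. It was counted as Cmpd60 here, against its labels, and which of the sources is right could not be settled. Many genes named below have a p below 0.01 or 0.05 for treatment within APPSWE brain. Where such a p passes its limit no longer with this library as vehicle, this is said beside the gene. For the differences from littermates and from the older mice, the p of single genes are given only with the library as Cmpd60. Whether those p hold with it as vehicle is not reported gene by gene. The reads counted to genes ranged from 25418439 to 55871402 per library in the 10 APPSWE libraries.

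Histone deacetylases remove acetyl groups from lysines of histones and other proteins. HDAC1 and HDAC2, the main targets of Cmpd60, are catalytic subunits of the Sin3, NuRD and CoREST corepressor complexes, which act at the promoters and enhancers of many genes, including the activity-induced immediate early genes of neurons. In neurons, immediate early genes such as Arc and Fos are transcribed within minutes of synaptic activity, whereas ribosomal, respiratory chain and chaperone genes are expressed in every cell.

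The libraries differed in complexity before any comparison of treatments. Genes with 1 count or more numbered 18122, 16402, 23044, 22165 and 23402 in Cmpd60 libraries s139, s141, s143, s147 and s148, and 15555, 20277, 18518, 20213 and 16577 in vehicle libraries s140, s142, s144, s145 and s146. The 3 Cmpd60 libraries s143, s147 and s148 lay above every vehicle library, while s139 and s141 lay within the vehicle range. The group means, 20627 ± 3164 and 18228 ± 2127 genes (SD, n = 5 each), did not differ beyond the spread between libraries (two-sided exact permutation test over 252 splits, p = 0.206). Libraries s140, s141 and s146 correlated least with the other libraries (median Pearson's r of log2 CPM 0.904, 0.946 and 0.945, against 0.969 to 0.983 in the other 7), although s140 held the most reads of all 10. Results are also given without these 3 and the 2 littermate libraries s152 and s155 that stood apart in the same way, a choice made after the data were seen.

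**Figure D1:**
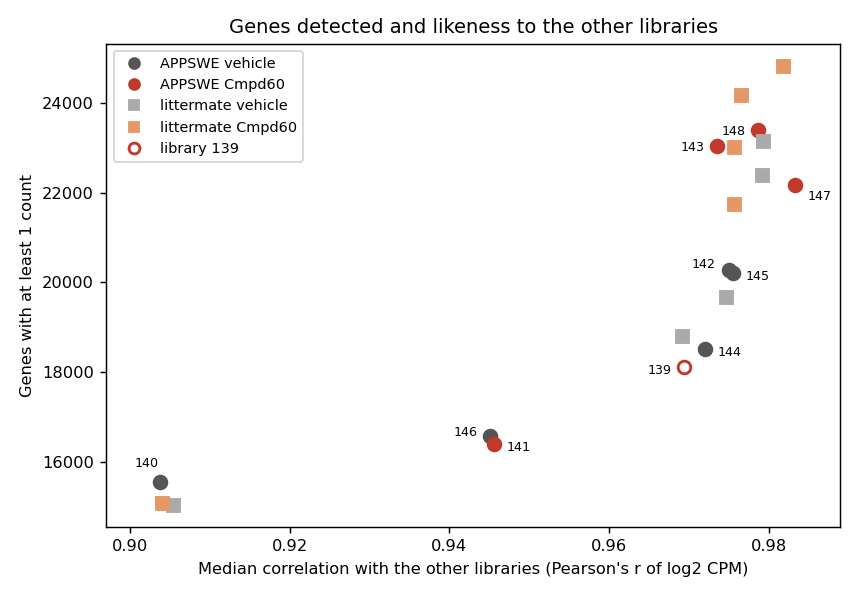
Genes with at least 1 count (vertical axis) against the median correlation of each library with the other 19 (horizontal axis) for the 20 libraries of the APPSWE cohort, with APPSWE libraries as numbered circles and littermates as squares. Library s140, and the 2 littermate libraries beside it, had the fewest genes and the lowest correlation, and s139 (open circle) lay among the vehicle libraries with 18122 genes.

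The tissue was brain by its defining markers. All 6 excitatory neuron, all 7 inhibitory neuron, all 8 astrocyte and all 8 oligodendrocyte markers reached 10 CPM, and striatal, cerebellar, thalamic and hippocampal markers were also present, so that markers of several brain regions were in the RNA. The mouse App gene was at 2035 to 2369 CPM in the Cmpd60 group, 2087 to 2385 CPM in the vehicle group and 1949.9 to 2267 CPM in the 10 littermates, so its counts do not check the transgene. In bulk RNA, fewer cells of a type and less RNA per cell cannot be told apart, and this holds for every difference below.

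No gene passed the test between Cmpd60 and vehicle in APPSWE brain after adjustment for multiple testing (edgeR quasi-likelihood test, Benjamini-Hochberg, smallest adjusted p = 0.381). At an unadjusted p below 0.05 there were 2400 of 23273 genes (10.3%), and at p below 0.01, the threshold of the study's methods for this comparison, 531 genes (2.28%), 393 higher with Cmpd60 (1.69%) and 138 lower (0.593%). The study used limma-voom and not edgeR, and limma-voom here gave 723 genes at p below 0.01, 542 higher and 181 lower. DESeq2 called 19 genes past an adjusted p of 0.05, of which 8 were at 10 CPM or more, and limma-voom called 1, the gene model ENSMUSG00000106841 at a mean of 0.643 CPM. Without the filter on low counts edgeR called 4, namely Arc, Ttr, Trank1 and ENSMUSG00000101609 (adjusted p of 0.0047, 0.020, 0.020 and 0.020). Without the 5 libraries that stood apart it called 2, ENSMUSG00000096780 (log2 fold change 1.49) and ENSMUSG00000105265 (-1.91). These gene models without a symbol were singled out after their values were seen.

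The balance of directions differed with the level of the genes. Among the 12880 genes under 10 CPM, 311 were higher (2.41%) and 41 lower (0.318%) in the Cmpd60 group at p below 0.01, together 352 (2.73%). The Cmpd60 libraries s143, s147 and s148 had the most genes detected of the 10. Among genes of at least 10 CPM, 82 were higher (0.789%) and 97 lower (0.933%), together 179 (1.72%). At p below 0.05 there were 792 (7.62%), 368 higher (3.54%) and 424 lower (4.08%). Leaving out library s140 lowered the count over all genes from 531 to 310, and leaving out library s148 lowered the count of at least 10 CPM from 179 to 105. Without the 5 libraries that stood apart, the latter count was 342. With library complexity (genes detected) in the model the split over all genes was 315 higher to 518 lower, in place of 393 to 138, and with limma-voom the split of at least 10 CPM was 254 higher to 161 lower, so neither direction prevailed under all fits. With library s139 as vehicle the count of at least 10 CPM was 129, and without library s139 there were 68 higher and 90 lower. The groups did not overlap for 174 genes of at least 10 CPM (1.67%), 86 higher (0.827%) and 88 lower (0.847%), and 67 of these also had p below 0.01 (0.645%). The median log2 fold change over the 10393 genes was -0.0036, and 49.1% of them were higher in the Cmpd60 group. Because no adjusted test was passed, genes are described below as higher or lower with their unadjusted p, and each adjusted p was 0.381 or more. A two-sided exact permutation test of mean log2(CPM + 1) over the 252 splits is given beside the main genes, and the smallest p it allows, 0.00794, is that of any gene whose groups do not overlap.

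The smallest p among genes of at least 10 CPM belonged to Arc (ENSMUSG00000022602), which encodes a synaptic protein that drives AMPA receptor endocytosis. Arc was at 72.98, 78.2, 49.8, 96.2 and 59.4 CPM in Cmpd60 libraries s139, s141, s143, s147 and s148 (mean 71.3 ± 17.8, SD, n = 5). It was at 125, 191, 106, 148.7 and 129.6 CPM in vehicle libraries s140, s142, s144, s145 and s146 (mean 139.9 ± 32.2, SD, n = 5). Every Cmpd60 library, s139 included, lay below every vehicle library. This gave a log2 fold change of -0.97 ± 0.19 (SE) with an adjusted p = 0.381 by edgeR and an exact permutation p = 0.00794, and the unadjusted p was below 0.01 both without library s139 and with it as vehicle.

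Fos (ENSMUSG00000021250), a subunit of the AP-1 transcription factor, showed the same separation. Its level was 11.9, 16.3, 8.97, 13.6 and 9.87 CPM in the Cmpd60 libraries and 22.4, 26.9, 23.2, 19.2 and 18.6 CPM in the vehicle libraries, in the order of library numbers given for Arc. The highest Cmpd60 value lay below the lowest vehicle value. Its log2 fold change was -0.87 ± 0.27 (SE) with an adjusted p = 0.403 by edgeR and an exact permutation p = 0.00794, and the unadjusted p was below 0.01 without library s139 and below 0.05 with it as vehicle.

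Egr1, an activity-induced zinc finger factor, was at 114, 134, 80.03, 122 and 92.3 CPM in the Cmpd60 group and 152.9, 159, 148.4, 139.7 and 109 CPM in the vehicle group, overlapping through vehicle library s146 (log2 fold change -0.39, p below 0.05 by edgeR). Nr4a1, an orphan nuclear receptor, was at 28.5, 25.3, 32.9, 35.8 and 30.8 CPM against 34.6, 65.4, 40.6, 53.2 and 32.2 CPM, where vehicle libraries s142 and s145 were the highest (log2 fold change -0.56, p below 0.05). The p of Nr4a1 was above 0.05 both without library s139 and with it as vehicle. Dusp1, a phosphatase that switches off MAP kinases, had a log2 fold change of -0.44 (p below 0.05). Its Cmpd60 values of 15.3 to 28.8 CPM overlapped the vehicle values of 26.1 to 32.9 CPM.

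Of the 15 immediate early genes of at least 10 CPM, 14 were lower in the Cmpd60 group and 1, Egr3, was higher at 0.18 on the log2 scale (p above 0.05). Of the 15, 2 (Arc and Fos) were lower at p below 0.01, where 0.933% of all genes of at least 10 CPM were, and 5 were lower at p below 0.05, where 4.08% were. The median log2 fold change of the list was -0.25, beside -0.0036 over all genes of at least 10 CPM, -0.27 without library s139, -0.27 with s139 as vehicle and -0.35 without the 5 libraries that stood apart. By library, the median member deviated from its vehicle mean by -0.30, -0.087, -0.40, -0.24 and -0.31 on a log2 scale in Cmpd60 libraries s139, s141, s143, s147 and s148, and by -0.11, 0.22, -0.066, 0.0022 and -0.18 in vehicle libraries s140, s142, s144, s145 and s146. Library s141 lay inside the vehicle range and the other 4 Cmpd60 libraries lay below it. The other 5 list members, Fosb, Egr2, Npas4, Ier2 and Klf4, stayed under 10 CPM and had p above 0.05.

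**Figure D2:**
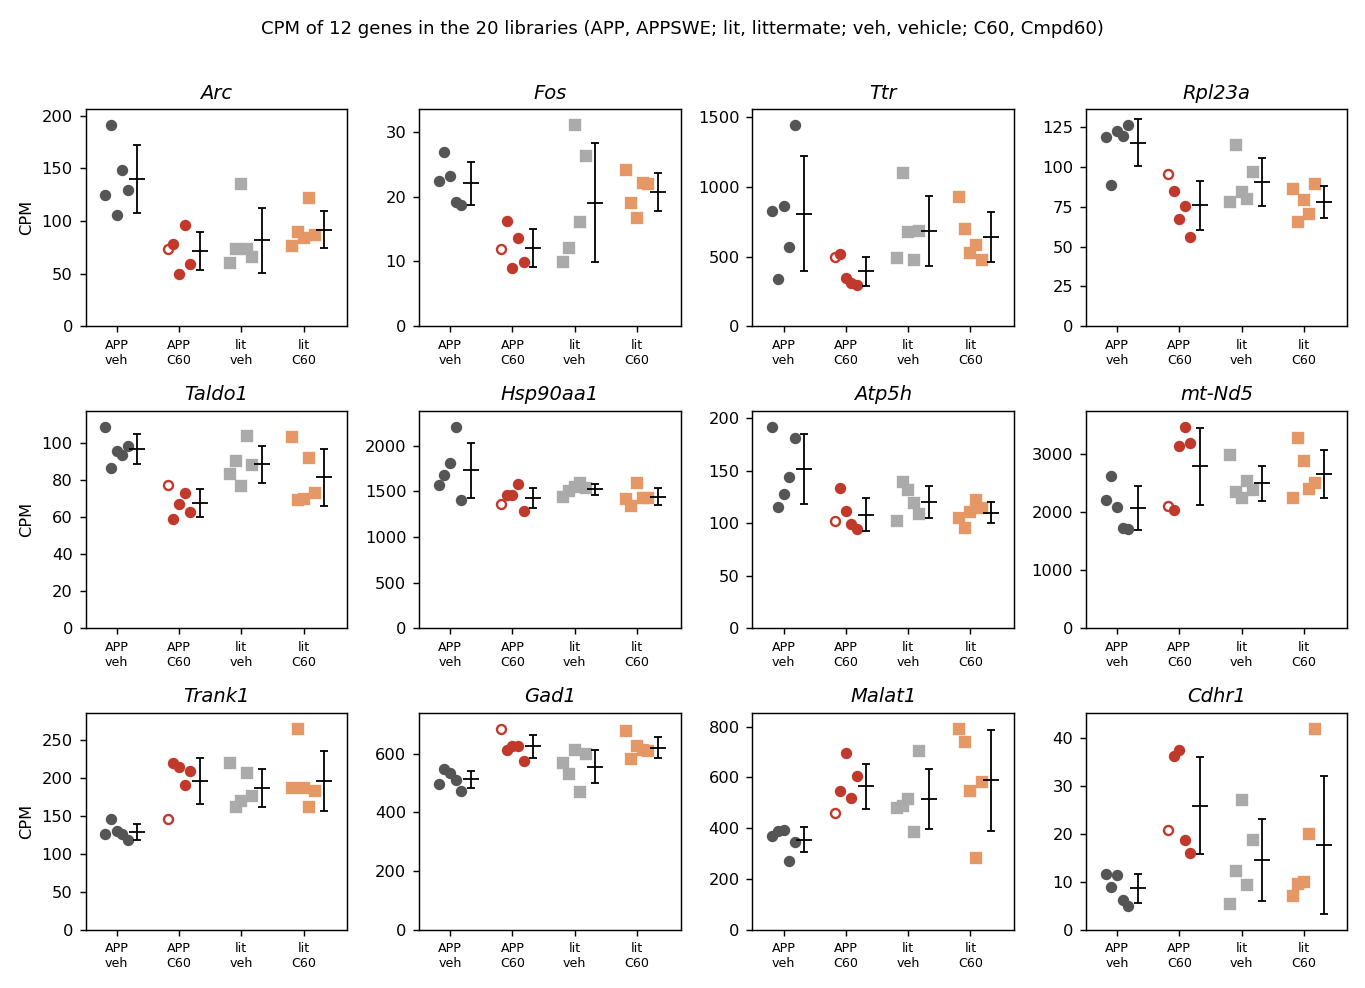
CPM of 12 genes in the 20 libraries of the APPSWE cohort by group, 1 point per library with the mean and SD of each group beside it in black. The 5 APPSWE Cmpd60 points, with library s139 open, lay below the 5 APPSWE vehicle points for Arc, Fos and Taldo1, above them for Gad1, Malat1 and Cdhr1, and overlapped them for the other 6 genes.

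Promoter sequences are shown for the 3 immediate early genes of smallest p that the RefSeq promoter table held, because members of this list were lower together and cyclic AMP response elements are a known feature of such promoters. Of the 15 members, 12 were in the table (build GRCm38.p6), and Arc, Egr1 and Egr3 were not matched. The 250 bases before the first listed start lie at chr12:85473640-85473889 on the + strand for Fos, at chr15:101266596-101266845 on the + strand for Nr4a1 and at chr17:26508473-26508722 on the - strand for Dusp1. Capitals mark TGACG, the core of a cyclic AMP response element, on either strand, and overlapping matches run together.
Fos: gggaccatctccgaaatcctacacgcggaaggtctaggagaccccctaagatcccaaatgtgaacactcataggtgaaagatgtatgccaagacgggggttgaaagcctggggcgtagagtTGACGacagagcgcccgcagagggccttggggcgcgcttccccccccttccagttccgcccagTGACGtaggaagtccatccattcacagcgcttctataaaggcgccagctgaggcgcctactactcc
Nr4a1: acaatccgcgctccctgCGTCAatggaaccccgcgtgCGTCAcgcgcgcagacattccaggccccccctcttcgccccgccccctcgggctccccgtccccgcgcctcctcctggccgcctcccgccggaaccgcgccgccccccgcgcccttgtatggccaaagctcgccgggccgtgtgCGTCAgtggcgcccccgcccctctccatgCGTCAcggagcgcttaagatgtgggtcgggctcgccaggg
Dusp1: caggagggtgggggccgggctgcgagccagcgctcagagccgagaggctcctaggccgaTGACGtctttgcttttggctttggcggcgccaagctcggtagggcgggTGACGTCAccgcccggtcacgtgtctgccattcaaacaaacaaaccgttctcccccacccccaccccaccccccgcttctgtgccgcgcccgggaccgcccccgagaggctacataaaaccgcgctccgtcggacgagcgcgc
The stretch held 2 matches in Fos, 4 in Nr4a1 and 3 in Dusp1. TGACG was in 9 of the 12 promoters of the list (75%), in 42.9% of the 56 cytosolic ribosomal protein promoters and in 17.9% of all 27025 promoters in the same window. A match is a description of the sequence and not a site of binding.

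The immediate early genes stood differently in the other brains. In littermates, 9 of the 15 were higher with Cmpd60 and 6 lower, and the median was 0.058. In 20-month brain 13 were higher and 2 lower, and the median was 0.18. For Arc the log2 fold change was 0.17 in littermates (p above 0.05) and 0.40 in 20-month brain (p below 0.05). The difference of the Arc effect was -1.14 against littermates (edgeR interaction, p below 0.01, adjusted p = 0.881) and -1.37 against 20-month brain (p below 0.01, adjusted p = 0.198). The corresponding difference was -0.99 for Fos (p below 0.05), -0.82 for Nr4a1 (p below 0.05) and -0.79 for Dusp1 (p below 0.05) against littermates. None of these differences passed adjustment. Arc was at 60.2, 73.1, 135, 73.1 and 65.9 CPM in littermate vehicle libraries s149, s150, s151, s154 and s155, so that 4 of these 5 lay in the range of the APPSWE Cmpd60 group (49.8 to 96.2 CPM) and the fifth, s151, lay in the APPSWE vehicle range. In the 5 littermate Cmpd60 libraries Arc was at 76.6 to 122 CPM.

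Genes of the translation machinery were lower in the Cmpd60 group. Ribosomal proteins form the small and large subunits of the cytosolic ribosome. Of the 79 listed, 75 were measured at 10 CPM or more, and of these 67 were lower and 8 higher, with 8 lower at p below 0.01 (background 0.933%), 22 lower at p below 0.05 (background 4.08%) and none higher at either threshold. The median log2 fold change was -0.21, and it was -0.26 without library s139, -0.25 with it as vehicle and -0.22 without the 5 libraries that stood apart. The medians by library were -0.013, -0.0070, -0.41, -0.25 and -0.50 in the Cmpd60 libraries and 0.12, -0.12, -0.025, -0.011 and 0.12 in the vehicle libraries, relative to the vehicle mean of each gene. Libraries s143, s147 and s148 lay below every vehicle library, and s139 and s141 lay within the vehicle range.

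Rpl23a (ENSMUSG00000058546), a protein near the exit of the large subunit's peptide tunnel, was at 95.5, 84.9, 67.3, 75.1 and 56.1 CPM in the Cmpd60 libraries and 119, 88.8, 122, 119 and 126 CPM in the vehicle libraries. Vehicle library s142 alone reached into the Cmpd60 range. The difference was a log2 fold change of -0.60 ± 0.14 (SE) with an adjusted p = 0.403 by edgeR and an exact permutation p = 0.0159, and the unadjusted p was below 0.01 both without library s139 and with it as vehicle. Rps6, the small-subunit target of S6 kinase, Rps7 and Rps9 were lower without overlap, by log2 fold changes of -0.29, -0.27 and -0.36, each at p below 0.01. Of these Rps9 had p between 0.01 and 0.05 with library s139 as vehicle, and Rps7 without the 5 libraries that stood apart. Most ribosomal protein genes have processed copies elsewhere in the genome, and HTSeq leaves out reads that align to several places, so the levels of single members are uncertain. Rps2 and Rpl26, the members with the largest positive values (0.88 and 0.82 on the log2 scale), had standard errors of 0.84 and 1.11.

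Ribosome assembly showed the same direction. Of 50 ribosome biogenesis factors, 36 were lower and 14 higher (median log2 fold change -0.13), 2 of them lower at p below 0.01 (background 0.933%). These were Nhp2, a protein of the H/ACA particles that guide pseudouridylation (-0.75), and the nucleolar protein nucleolin, Ncl (-0.23). Ncl was at 321, 274, 337, 308 and 270.1 CPM in the Cmpd60 libraries and 312, 344, 393, 348 and 376 CPM in the vehicle libraries, with vehicle library s140 inside the Cmpd60 range. With library s139 as vehicle and without the 5 libraries both had p between 0.01 and 0.05, and without the 5 the value of Nhp2 was -0.41. Mitochondrial ribosomal proteins divided 45 lower to 24 higher (median -0.089) with 1 of 69, Mrpl48, lower at p below 0.01 (-0.41, p below 0.05 without library s139 and above 0.05 with it as vehicle), where 0.933% of all genes were. The 2 members whose groups did not overlap, Mrps23 (0.43) and Mrpl38 (0.22), were both higher in the Cmpd60 libraries, with p above 0.05. Of all genes of at least 10 CPM, 0.827% were higher without overlap. With library s139 as vehicle the exact permutation p was 0.0095 for Mrps23 and 0.60 for Mrpl38. Mrpl34 had -0.66 (p below 0.05), with vehicle library s140 the highest at 26.6 CPM, and -0.30 without the 5 libraries (p above 0.05). Spliceosome components divided 23 lower to 14 higher (median -0.068), none at p below 0.01 and 5 lower at p below 0.05 (Snrpd1, Lsm4, Prpf38a, Snrpb and Sf3b2, with -0.61 to -0.20; background 4.08%). Without the 5 libraries none of these 5 had p below 0.05, and with library s139 left out or as vehicle Lsm4 and Prpf38a had p above 0.05. In these lists the median was closer to 0 than among the cytosolic ribosomal proteins.

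Protein folding chaperones were almost uniform in direction. Of 44 members, 43 were lower and 1, the prefoldin subunit Pfdn4, was higher (0.11, p above 0.05), with a median log2 fold change of -0.19. At p below 0.01 there were 3 (background 0.933%) and at p below 0.05 there were 14 (background 4.08%), all lower. The list medians by library, relative to the vehicle mean of each gene, were -0.12, -0.18, -0.19, -0.10 and -0.27 in the Cmpd60 libraries. In the vehicle libraries they were -0.125, 0.0010, -0.0033, 0.235 and -0.047. Vehicle library s140 lay inside the Cmpd60 range, so the groups overlapped, and s145 was the highest. Hsp90aa1 (ENSMUSG00000021270), the inducible form of HSP90, was at 1363, 1459, 1457, 1577 and 1281 CPM in the Cmpd60 libraries and 1573, 1682, 1809, 2206 and 1405 CPM in the vehicle libraries. Vehicle libraries s140 and s146 overlapped the Cmpd60 range, and s145 was the highest. The log2 fold change was -0.28 ± 0.087 (SE) with an adjusted p = 0.403 by edgeR and an exact permutation p = 0.0556. The unadjusted p was below 0.01 without the 5 libraries that stood apart, and below 0.01 without library s139 and below 0.05 with it as vehicle. St13, which binds HSP70 (-0.27), and Dnaja1, an HSP40 co-chaperone (-0.30), were the others at p below 0.01, and both had p between 0.01 and 0.05 with library s139 as vehicle. Hsph1 (-0.44), Stip1 (-0.32) and Hsp90ab1 (-0.19), all of the HSP70 and HSP90 machinery, had p between 0.01 and 0.05, and p below 0.01 without the 5 libraries. Hsph1 and Hsp90ab1 had p above 0.05 with library s139 as vehicle. The list median was -0.069 in littermates and -0.046 in 20-month brain, where 31 and 33 of the 44 were lower.

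**Figure D3:**
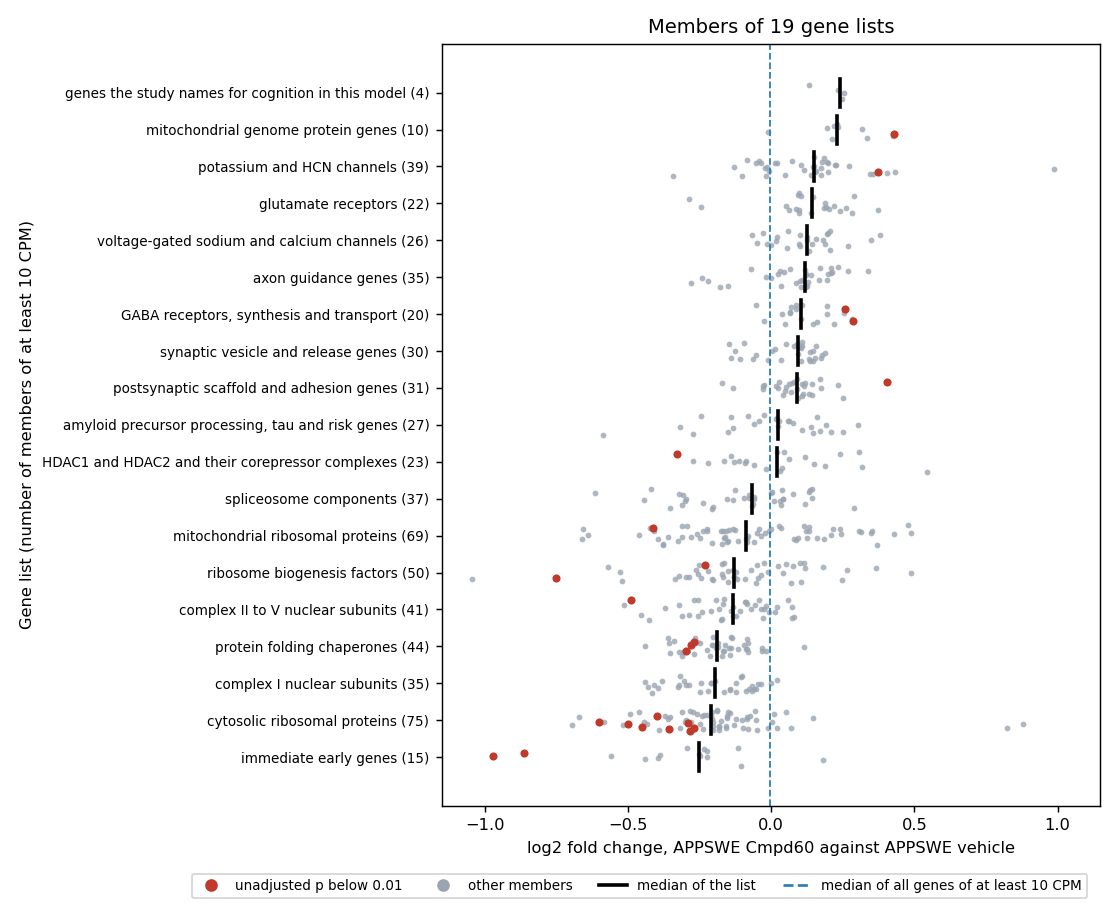
log2 fold change of Cmpd60 against vehicle in APPSWE brain (horizontal axis) for each member of at least 10 CPM of 19 gene lists, with members at an unadjusted p below 0.01 in red, the list median as a black bar and the median of all genes of at least 10 CPM dashed. Medians ran from -0.25 in the immediate early genes to 0.23 in the mitochondrial genome genes and 0.24 in the list of 4 genes.

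Nuclear and mitochondrial genes of the respiratory chain stood on opposite sides of 0. The nuclear-encoded subunits of complex I, the NADH dehydrogenase, were lower in 34 of 35 cases (median log2 fold change -0.20), with none at p below 0.01 and 5 lower at p below 0.05, which were Ndufa13, Ndufs5, Ndufb6, Ndufb10 and Ndufs8 (-0.44 to -0.29), where 4.08% of all genes were lower at that p. Ndufb6 and Ndufs8 had p above 0.05 with library s139 as vehicle. The complex I medians by library were -0.083, 0.13, -0.32, -0.17 and -0.47 in the Cmpd60 libraries and 0.12, -0.21, -0.036, -0.045 and 0.17 in the vehicle libraries. Libraries s143 and s148 lay below every vehicle library, while s139, s141 and s147 lay within the vehicle range. Complexes II to V were lower in 35 of 41 cases (median -0.13, but -0.065 without the 5 libraries that stood apart), with 1 at p below 0.01 (background 0.933%). That 1 was Atp5h (ENSMUSG00000034566), subunit d of ATP synthase, at 102, 133, 112, 99.3 and 94.6 CPM in the Cmpd60 libraries and 192, 116, 127, 143.7 and 181 CPM in the vehicle libraries. Cmpd60 library s141 lay inside the vehicle range, and the vehicle libraries s140 and s146 were the highest. Atp5j, another ATP synthase subunit, had -0.37 (p below 0.05). The log2 fold change of Atp5h was -0.49 ± 0.13 (SE) with an adjusted p = 0.403 by edgeR and an exact permutation p = 0.0317, and the unadjusted p was below 0.01 without library s139 and below 0.05 with it as vehicle. The complex I median was also negative in littermates (-0.15, 28 of 35 lower) and in 20-month brain (-0.14, 33 of 35 lower), and for complexes II to V it was -0.081 and -0.11.

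Of the 13 protein genes of the mitochondrial genome 10 reached 10 CPM, and 9 were higher in the Cmpd60 group (median log2 fold change 0.23), 4 at p below 0.05 (background 3.54%) and 1 at p below 0.01. The 4 were mt-Nd4 (0.42), mt-Co1 (0.33), mt-Cytb (0.32) and mt-Nd5. The 1 at p below 0.01 was mt-Nd5 (ENSMUSG00000064367), a complex I subunit, at 2097, 2036, 3139, 3458 and 3185 CPM in the Cmpd60 libraries and 2212, 2620.3, 2080.4, 1718 and 1708 CPM in the vehicle libraries. Libraries s143, s147 and s148 exceeded every vehicle library, and s139 and s141 did not. This gave a log2 fold change of 0.43 ± 0.14 (SE) with an adjusted p = 0.403 by edgeR and an exact permutation p = 0.0873, and the unadjusted p was below 0.01 both without library s139 and with it as vehicle. For the list, the medians by library were -0.053, 0.018, 0.41, 0.59 and 0.32 in the Cmpd60 libraries and 0.32, 0.33, -0.18, -0.24 and -0.26 in the vehicle libraries. Vehicle libraries s140 and s142 reached the level of Cmpd60 library s148 and exceeded s139 and s141, so the groups overlapped. In littermates all 10 were higher (median 0.10).

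Genes of neuronal excitability and synapses were mostly higher in the Cmpd60 group. GABA receptor, synthesis and transport genes were higher in 18 of 20 cases (median log2 fold change 0.11), 2 at p below 0.01 (background 0.789%) and 4 at p below 0.05 (background 3.54%). Gad1 (ENSMUSG00000070880), the larger isoform of the enzyme that makes GABA, was at 685, 614, 628, 626 and 575 CPM in the Cmpd60 libraries and 498, 549, 534, 509 and 473 CPM in the vehicle libraries. Every Cmpd60 library exceeded every vehicle library, and library s139 was the highest. Its log2 fold change was 0.29 ± 0.075 (SE) with an adjusted p = 0.403 by edgeR and an exact permutation p = 0.00794, and the unadjusted p was below 0.01 without library s139 and above 0.05 with it as vehicle. The vesicular GABA transporter Slc32a1 had a log2 fold change of 0.28 (p below 0.05, above 0.05 with library s139 as vehicle), whereas Gad2, the other synthesis enzyme, had a log2 fold change of 0.037 (p above 0.05).

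Glutamate receptor genes were higher in 20 of 22 cases (median 0.14), sodium and calcium channel genes in 22 of 26 (median 0.13) and potassium and HCN channel genes in 28 of 39 (median 0.15). At p below 0.05, 2, 4 and 3 members of these lists were higher (9.09, 15.4 and 7.69%, background 3.54%). The sodium-activated potassium channel Kcnt1 (0.27), the sodium channel subunit Scn3b (0.35), the R-type calcium channel Cacna1e (0.38), the kainate receptor Grik3 (0.29) and the metabotropic receptor Grm2 (0.37) had p between 0.01 and 0.05. With library s139 as vehicle, and also without the 5 libraries, p was above 0.05 for all of these but Kcnt1, and Grik3 was at 0.16 and 0.11. With s139 left out Grik3 and Grm2 had p above 0.05. Glutamate receptor genes divided 11 higher to 11 lower both in littermates and in 20-month brain (medians 0.0062 and 0.015). The GABA list had 14 of 20 higher in littermates, with a median of 0.11 beside 0.11 in APPSWE brain, and 11 of 20 higher in 20-month brain. Potassium and HCN channel genes were higher in 28 of 39 cases in both other brains as well, and sodium and calcium channel genes in 17 and 16 of 26.

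Synaptic vesicle genes were higher in 22 of 30 cases (median 0.095), postsynaptic scaffold and adhesion genes in 26 of 31 (median 0.091) and axon guidance genes in 27 of 35 (median 0.12). At p below 0.01 stood 1 of the 31 postsynaptic genes, Lrrc7, a scaffold of the postsynaptic density, and none of the 30 and 35 of the other lists, where 0.789% of all genes were higher at that p. It was at 66.2, 85.2, 76.8, 67.7 and 77.7 CPM in the Cmpd60 libraries and 45.3, 71.8, 59.5, 61.97 and 43.7 CPM in the vehicle libraries, where vehicle library s142 lay inside the Cmpd60 range and s140 and s146 were the lowest. The difference was a log2 fold change of 0.40 ± 0.14 (SE) with an adjusted p = 0.403 by edgeR and an exact permutation p = 0.0238, and without the 5 libraries that stood apart the unadjusted p was above 0.05. At p below 0.05 stood the synaptic adhesion gene Nrxn3 (0.25), the vesicle glycoprotein Sv2a (0.15) and the semaphorin receptors Plxnd1 (0.34) and Plxna1 (0.27), all higher, and ephrin-B3, Efnb3, lower without overlap (-0.28, p below 0.05). Higher at that p were 3.33% of the vesicle, 6.45% of the postsynaptic and 5.71% of the axon guidance genes (background 3.54%). Lower at that p were 2.86% of the axon guidance genes (background 4.08%). Plxnd1 was, with library s139 as vehicle, at 0.066 and Plxna1 at 0.12, and both had p above 0.05, as they did with it left out. Without the 5 libraries Nrxn3, Sv2a, Plxna1 and Efnb3 had p above 0.05. In littermates and in 20-month brain the vesicle genes were higher in 18 and 21 of 30 cases, the postsynaptic genes in 18 and 25 of 31 and the axon guidance genes in 19 and 24 of 35. Without the 5 libraries the medians of the 3 lists in APPSWE brain were 0.034, 0.029 and 0.034, which is closer to 0 than over all libraries, while those of the GABA and the sodium and calcium channel lists were 0.11 and 0.13.

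**Figure D4:**
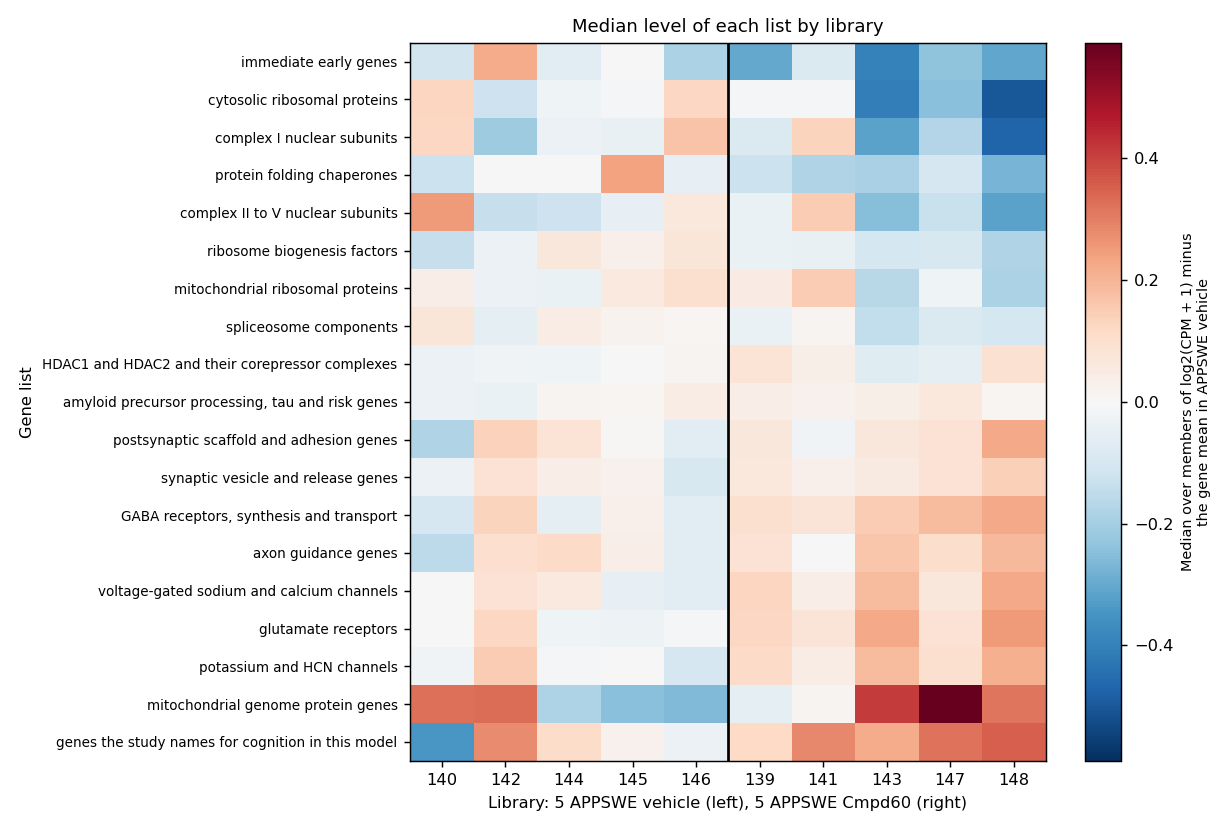
Median over the members of each of 19 gene lists (rows) of log2(CPM + 1) minus the gene's mean in APPSWE vehicle, in the 10 APPSWE libraries (columns, vehicle left and Cmpd60 right of the line). Libraries s143, s147 and s148 carried the lowest values of the cytosolic ribosomal list (-0.41, -0.25 and -0.50), and libraries s139 and s141 lay within the vehicle range (-0.013 and -0.0070).

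Gene length moved with the list results. Exonic length, taken as the union of annotated exons, had a median of 1444 bases in cytosolic ribosomal protein genes, 1334 in complex I genes, 4156 over the genes of at least 10 CPM, 6156 in glutamate receptor genes and 8878 in sodium and calcium channel genes. Over the 10222 genes of at least 10 CPM with a length, the median log2 fold change was -0.20 in the 286 genes of up to 1000 bases, -0.023 in the 1748 genes of over 3000 and up to 4000 bases and 0.069 in the 1406 genes over 8000 bases. The share of genes that were higher was 23.4% in the shortest and 66.9% in the longest class. Spearman's rho across genes between length and log2 fold change was 0.261 in APPSWE brain, 0.228 without the 5 libraries that stood apart, 0.165 in littermates and 0.183 in 20-month brain, where genes are not independent replicates.

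By library, the median of genes over 6000 bases minus that of genes up to 1000 bases, relative to the mean of the 20 libraries, was -0.073, -0.17, 0.32, 0.061 and 0.31 in the Cmpd60 libraries and -0.36, 0.038, -0.031, -0.10 and -0.29 in the vehicle libraries, on a log2 scale. Libraries s143 and s148 were the highest and s140 and s146 the lowest, and the groups overlapped. The share of reads outside annotated features was 4.87, 5.27, 6.46, 5.11 and 5.88% in the Cmpd60 libraries and 4.95, 4.70, 4.81, 3.99 and 4.43% in the vehicle libraries, and Cmpd60 library s139 alone lay within the vehicle range. The immediate early genes (median length 2878 bases), the chaperones (2859.5 bases) and the mitochondrial genome genes (998 bases) had medians of -0.25, -0.19 and 0.23, against -0.040 for all genes of over 2000 and up to 3000 bases and -0.20 for those of up to 1000. With genes detected in the model, the medians of all 19 lists kept their sign. The part of length in the list results was not tested.

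**Figure D5:**
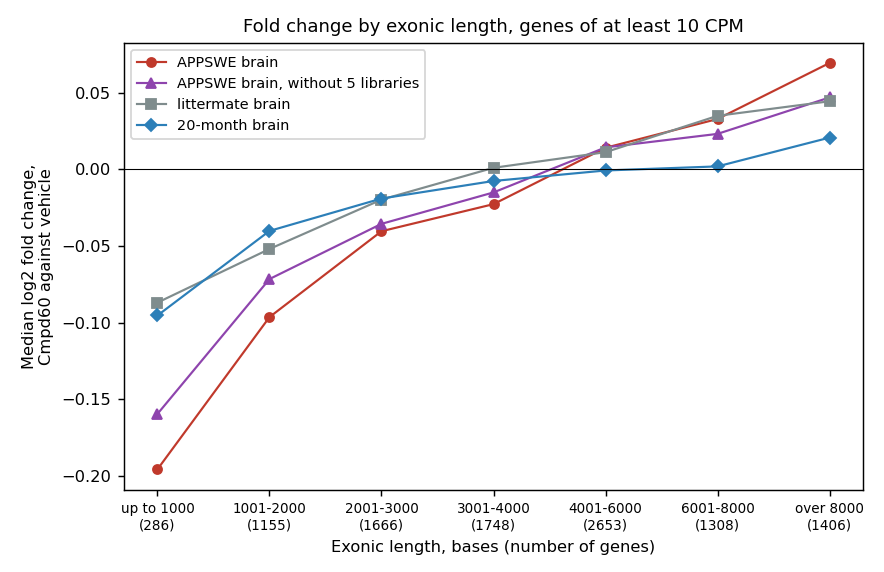
Median log2 fold change of Cmpd60 against vehicle (vertical axis) in 7 classes of exonic length (horizontal axis, with the number of genes) among genes of at least 10 CPM, in APPSWE brain with and without the 5 libraries that stood apart, in littermates and in 20-month brain. The median increased with length in all 4 series, from -0.20 to 0.069 in APPSWE brain and from -0.10 to 0.021 in 20-month brain.

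Several genes with small p belonged to none of the lists. Trank1 (ENSMUSG00000062296), in a locus linked to bipolar disorder, was at 146.1, 220.3, 214, 191 and 209.7 CPM in the Cmpd60 libraries and 126, 146.2, 131, 126 and 118 CPM in the vehicle libraries. Library s139 stood at the top of the vehicle range, just under vehicle library s142, and the other 4 Cmpd60 libraries lay above it. The log2 fold change was 0.60 ± 0.12 (SE) with an adjusted p = 0.381 by edgeR and an exact permutation p = 0.0159, and the unadjusted p was below 0.01 both without library s139 and with it as vehicle. The effect was 0.074 in littermates (interaction p below 0.01, adjusted p = 0.881) and 0.50 in 20-month brain (p below 0.01). In the littermate vehicle libraries Trank1 was at 162.1 to 220.7 CPM, above every APPSWE vehicle library. All APPSWE Cmpd60 libraries but s139 lay in that littermate vehicle range.

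Malat1 (ENSMUSG00000092341), a nuclear long non-coding RNA of splicing speckles, was at 460.2, 545, 695, 518 and 605 CPM in the Cmpd60 libraries and 369.8, 389.9, 394, 272 and 347 CPM in the vehicle libraries, without overlap. Its log2 fold change was 0.67 ± 0.18 (SE) (p below 0.01 by edgeR), and the unadjusted p was below 0.01 both without library s139 and with it as vehicle. Taldo1 (ENSMUSG00000025503), the transaldolase of the pentose phosphate pathway, was at 77.3, 58.6, 67.2, 72.7 and 62.6 CPM against 108, 86.2, 95.7, 93.3 and 98.3 CPM, also without overlap. Its log2 fold change was -0.51 ± 0.12 (SE) (p below 0.01), and the unadjusted p was below 0.01 both without library s139 and with it as vehicle. Syf2, Eml5 and Nbeal1 also had p below 0.01. Syf2, a splicing factor, was lower without overlap (-0.56, and -0.30 without the 5 libraries). Eml5, a microtubule-binding protein, was higher with overlap (0.67), and Nbeal1, a BEACH-domain protein, was higher without overlap (0.68).

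Genes at lower levels completed the set of largest differences. Tmem161b (0.83), Lrp4, an agrin receptor (0.69), Mpeg1, the perforin-2 of macrophages and microglia (0.69), Zcchc7 (0.68) and the poly(A) polymerase Tent2 (0.67) were higher without overlap, with means of 20.5 to 47.03 CPM in the Cmpd60 group. The clone-named RP23-115O3.9 (-0.93), the nucleosome-binding Hmgn5 (-0.88), Dtd2, which edits mischarged tRNA (-0.85), Larp1b (-0.84), Tmem160 (-0.78) and the transcobalamin receptor Cd320 (-0.74) were lower without overlap, with vehicle means of 13.9 to 24.2 CPM. In all 6 the highest vehicle value came from library s140. Without the 5 libraries, among them s140, RP23-115O3.9 was at -0.22, Tmem160 at -0.35 and Cd320 at -0.29, each with p above 0.05, and Lrp4 was at 0.44 (p below 0.01). With library s139 as vehicle, p was above 0.05 for Tmem161b (0.47), Mpeg1 (0.43) and Tent2 (0.37), and between 0.01 and 0.05 for Lrp4, Hmgn5, Dtd2, Larp1b, Tmem160 and Cd320. With it left out, p was between 0.01 and 0.05 for Tmem161b, Tent2, Dtd2, Tmem160 and Cd320.

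Ttr (ENSMUSG00000061808), the thyroid hormone carrier transthyretin, had the lowest fold change of the genes named by rule. It was at 497, 515, 349, 313 and 297 CPM in the Cmpd60 libraries and 826, 343, 863, 569 and 1439 CPM in the vehicle libraries, with vehicle library s142 inside the Cmpd60 range and s146 the highest. Its log2 fold change was -1.04 ± 0.26 (SE) with an adjusted p = 0.403 by edgeR and an exact permutation p = 0.0397, and the unadjusted p was below 0.01 without the 5 libraries that stood apart and below 0.01 both without library s139 and with it as vehicle. Transthyretin in brain is made in the choroid plexus, and the 7 markers of that tissue, Ttr included, summed to 375 to 579 CPM in the Cmpd60 group and 401 to 1575 CPM in the vehicle group. All but Otx2 were lower, among them the folate receptor Folr1 (-1.13, p below 0.05, but above 0.05 without library s139 or with it as vehicle), Clic6 (-0.41, p above 0.05) and Kl (-0.40, p above 0.05). The pituitary hormone genes Gh, Prl and Cga summed to 73.5 CPM in vehicle library s146, 1.81 CPM in Cmpd60 library s139 and to a median of 0.756 CPM in the vehicle group. The part of tissue content in the Ttr difference was not tested.

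Cdhr1 (ENSMUSG00000021803), a protocadherin of photoreceptors that also marks olfactory bulb neurons, was at 20.7, 36.2, 37.4, 18.8 and 16.1 CPM in the Cmpd60 libraries and 11.7, 9.003, 11.4, 6.19 and 5.04 CPM in the vehicle libraries, without overlap. The log2 fold change of 1.58 ± 0.43 (SE) (p below 0.01 by edgeR) was the highest of the genes named by rule. Doc2g, another olfactory bulb marker under 10 CPM, was at 2.70, 13.00, 4.01, 2.64 and 1.84 CPM against 0.0894, 0.396, 0, 0.593 and 0 CPM, also without overlap. The other 3 markers of that region, Th, Eomes and Tbx21, overlapped between groups and had p above 0.05. The sum of the 5 ran from 38.98 to 80.4 CPM with Cmpd60 and from 23.5 to 45.1 CPM with vehicle, and its part in the Cdhr1 difference was not tested.

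Other cell type markers gave smaller differences. All 8 oligodendrocyte markers were lower with Cmpd60 (median log2 fold change -0.13), led by the myelin gene Mobp (-0.29, p below 0.01, below 0.05 without the 5 libraries), and their sum was 5948 to 7703 CPM against 6999.9 to 7810.4 CPM. The astrocyte water channel Aqp4 was higher without overlap (0.34, p below 0.01), as was the gap junction gene Gja1 with overlap (0.24, p below 0.05), while 5 of the 8 astrocyte markers were lower. In littermates Aqp4 had 0.50 (p below 0.01) and Gja1 0.22 (p below 0.05), and the interaction p was above 0.05 for both. The striatal adenosine receptor Adora2a had a log2 fold change of 0.69 (p below 0.05), with p above 0.05 when library s139 was vehicle and, at 0.32, without the 5 libraries. Of the 9 striatal markers 7 were higher in APPSWE brain and none was higher in littermates. Of the 8 microglial markers of at least 10 CPM, 6 were higher and none had p below 0.05. The neuronal markers gave medians of 0.16 (excitatory) and -0.076 (inhibitory).

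The drug targets were measured next. Hdac1 was at 20.7, 20.7, 23.1, 18.3 and 18.4 CPM in the Cmpd60 libraries and 4.83, 12.5, 20.4, 15.9 and 15.9 CPM in the vehicle libraries, with library s140 far below the rest (log2 fold change 0.54 ± 0.30 (SE), p above 0.05 by edgeR). Hdac2 had a log2 fold change of -0.13 ± 0.12 (SE) (p above 0.05). Of 23 genes of the HDAC1 and HDAC2 complexes, 12 were higher and 11 lower (median 0.019), 3 at p below 0.05 (background 7.62%). Suds3, a subunit of the Sin3 complex, was lower at p below 0.01 (-0.33, but p above 0.05 without the 5 libraries and with library s139 as vehicle), and Mta3 of the NuRD complex (0.31) and Zmym2 of the CoREST complex (0.24) had p between 0.01 and 0.05. Mta3 was at 0.14 with library s139 as vehicle, and its p was above 0.05 there and with s139 left out. App had a log2 fold change of -0.043 ± 0.063 (SE) (p above 0.05). Of 27 genes of amyloid processing, tau and risk, 16 were higher and 11 lower (median 0.023), none at p below 0.01 and 4 at p below 0.05 (background 7.62%). Of the 4, the sheddase Adam17 was lower (-0.59), and the lipid transporter Abca1 (0.30), the sorting receptor Sorl1 (0.19) and Lrp1 (0.21) were higher. None of the 4 had p below 0.05 with library s139 as vehicle, where Adam17 was at -0.25, and only Sorl1 had with it left out.

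The 4 genes that the study singles out for cognition in this model, chosen by its authors on these samples and hence no independent evidence, were all higher and none had p below 0.05. The study took them from a comparison of all 4 groups, which is another contrast than treatment within APPSWE brain. Pla2g6, a phospholipase, had a log2 fold change of 0.25 ± 0.45 (SE) (p above 0.05), the microglial receptor Cx3cr1 0.25 ± 0.15 (SE) (p above 0.05), the adhesion molecule Ncam1 0.13 ± 0.080 (SE) (p above 0.05) and Cyfip1, of the WAVE complex, 0.23 ± 0.13 (SE) (p above 0.05). Pla2g6 was at 17.1, 18.1, 22.9, 23.3 and 21.6 CPM in the Cmpd60 libraries and 4.68, 22.4, 23.8, 26.3 and 9.62 CPM in the vehicle libraries, where s140 and s146 were the lowest and the other 3 vehicle libraries lay among or above the Cmpd60 values. With library s139 as vehicle p was below 0.05 for Cx3cr1 and Cyfip1. The interaction of genotype and treatment was 0.90 for Pla2g6, 0.42 for Cx3cr1, 0.21 for Ncam1 and 0.37 for Cyfip1, each with p above 0.05.

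Whether the response of APPSWE brain differed from that of littermates was tested by the interaction of genotype and treatment. No gene passed adjustment by edgeR (smallest adjusted p = 0.112) or limma-voom and 6 did by DESeq2. At an unadjusted p below 0.05 edgeR gave 1273 genes (5.47%), and at p below 0.01 it gave 253 (1.09%), of which 30 were among genes of at least 10 CPM (0.289%). In littermates 44 genes of at least 10 CPM had p below 0.01 (0.423%), against 179 (1.72%) in APPSWE brain. Of the genes named by rule, Arc, Trank1 and Mpeg1 had an interaction p below 0.01. Mpeg1 had log2 fold changes of 0.69 in APPSWE brain and -0.18 in littermates (p below 0.01, adjusted p = 0.881). The cytosolic ribosomal list was lower in 67 of 75 cases in APPSWE brain and in 61 of 75 in littermates (medians -0.21 and -0.12), with 3 members at an interaction p below 0.01. These 3, singled out after their values were seen, were Rpl29 (-0.67 in APPSWE brain and 4.22 in littermates, p below 0.01), Rps3a1 (-0.30 and 0.15, p below 0.01) and Rps15a (-0.24 and 0.26, p below 0.01). Within APPSWE brain Rpl29 had an exact permutation p = 0.183, and levels of single ribosomal protein genes are uncertain, as stated above.

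In 20-month brain, fitted on its own with 6 libraries a group, 617 genes of at least 10 CPM had p below 0.01 (5.94%). Against that brain, the effect in APPSWE brain differed for no gene of at least 10 CPM after adjustment by edgeR (smallest adjusted p = 0.198) or limma-voom. It differed for 538 (5.18%) at an unadjusted p below 0.05 and for 111 (1.07%) at p below 0.01. These included Arc, Rpl23a, Gad1 and Cdhr1. Their log2 fold changes in 20-month brain were -0.010 for Rpl23a, -0.094 for Gad1 and -0.56 for Cdhr1. In littermates they were -0.21 for Rpl23a, 0.16 for Gad1 and 0.28 for Cdhr1, and only Gad1 had p below 0.05 there. The interaction p was above 0.05 for Rpl23a and Gad1 and below 0.05 for Cdhr1. As a list, cytosolic ribosomal proteins were lower in 20-month brain too, in 64 of 75 cases (median -0.078). Mitochondrial ribosomal proteins were lower there in 61 of 69 cases (median -0.059) and ribosome biogenesis factors in 39 of 50 (median -0.057). The 20-month mice formed a separate cohort, so that age, genotype and cohort cannot be told apart in this comparison.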

How the data were processed

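RNA-seq of 20 brain libraries of the APPSWE cohort and 12 of 20-month mice was used. According to the methods and labels, libraries were prepared from poly(A) RNA with the NEBNext Ultra II Directional kit and sequenced on a NovaSeq6000. The authors then checked reads with FastQC, trimmed them with Trimmomatic 0.32, aligned them with HISAT2 2.1.0 and counted them per gene with HTSeq 0.11.0 with regard to strand. Reads that align to several places were left out by that counter. The genome build is not given in the sources used here, and no coordinates were taken from the deposited files. The deposited values are raw read counts per Ensembl gene. A gene was tested if 3 or more of the 20 libraries held over 2 counts of it, which left 23273 of 54232 genes.

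Counts were normalised by TMM and fitted in edgeR 4.0.16 (R 4.3.3) by its quasi-likelihood test with 4 groups of 5 libraries, and the difference from littermates was tested as an interaction. The 20-month brain was fitted together with the APPSWE cohort for the other difference. Effects and p within 20-month brain came from a separate fit of its 12 libraries alone. CPM were computed from TMM-scaled library sizes. Symbols and exonic lengths (GENCODE) matched 32651 of the 54232 genes. P-values were adjusted by Benjamini and Hochberg over all genes tested. DESeq2 1.42.0 and limma-voom (limma 3.58.1), other filters, a covariate and the omission of each library were alternatives. The study itself used limma-voom. Replicates are libraries that the labels list as separate, so p-values measure the spread between these libraries. Figures were drawn with matplotlib 3.10.9 (Python 3.11.15), and promoters and their coordinates came from RefSeq (GRCm38.p6).

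The members and the gene lists were chosen with earlier results of these data known. Named genes, all of at least 10 CPM, were in each direction the 8 of largest fold change among those at p below 0.01 without overlap, the 5 of smallest p, and up to 2 of smallest p in each list, with Hdac1, Hdac2, App and the 4 genes the study names for cognition. Gene models without a symbol were counted only, and some genes that the rule or a list held are not reported here. The group of library s139 was taken from the study's expression table and not from its deposited labels, which give vehicle. Other genes, such as further members counted in a list and the cell type markers, were singled out after their values were seen.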

Additional observations from a re-analysis of the deposited data

Results flagged for a closer look

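With 70 measures examined in each of the 2 groups of 5 libraries, 1 library lay apart from the other 4 by Dixon's criterion in 11 cases, and chance alone, which marks about 1 in 20, would give about 7. Of the 9 genes concerned, 4 stood apart in vehicle library s140. These were Hmgn5 at 35.4 CPM, Tmem160 at 39.2 CPM and Dtd2 at 21.4 CPM, all above the other vehicle libraries, and Lrp4 at 18.7 CPM, below them. Vehicle library s142 was low in Rpl23a at 88.8 CPM and vehicle library s146 was low in Plxna1 at 86.1 CPM.

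Among the Cmpd60 libraries, Mpeg1 was high in library s139 at 29.1 CPM. RP23-115O3.9 was low in library s141 at 6.52 CPM, and Abca1 was low in library s147 at 65.9 CPM. In read depth, Cmpd60 library s143 with 55844566 counted reads and vehicle library s140 with 55871402 stood above the other libraries of their groups, which held at most 27772286 and 28410333.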

How the results depend on the processing

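No paired analysis was possible because the groups share no replicate numbers, each library having a number of its own. The count past an adjusted p of 0.05 was 19 with DESeq2, 1 with limma-voom, 4 without a filter on low counts, 2 without the 5 libraries that stood apart and 0 each time 1 library was left out. The count at p below 0.01, 531 in the reported fit, was 349 with at least 10 counts in at least 3 libraries, 297 with only the 10 APPSWE libraries, 833 with genes detected as a covariate, and 310 to 591 when 1 library was left out. When only genes of at least 10 CPM were fitted the count was 175, against 179 for the same genes in the reported fit. Among genes of at least 10 CPM the count of 179 was 302 with DESeq2, 415 with limma-voom, 351 with library quality weights, 342 without the 5 libraries and 105 to 263 when 1 library was left out. For the difference from littermates, 253 became 128 with limma-voom, and 193 to 287 when 1 library was left out. When only genes of at least 10 CPM were fitted the count of that difference was 28, against 30 for the same genes in the reported fit. For the difference from 20-month brain, 111 became 233 with limma-voom. The cause of these shifts was not tested, apart from the fits of fewer genes.

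Of 64 named genes, 35 had p below 0.01 in the reported fit. Of these 16 kept it with library s139 as vehicle, 26 without library s139, 25 without the 5 libraries, 27 with the covariate, 33 with limma-voom and 35 with DESeq2. Between 22 and 31 kept it when 1 library was left out. Pla2g6 reversed to -0.19 without the 5 libraries. The medians of 18 or 19 of the 19 lists kept their sign in every alternative. The difference in genes detected between groups, 2399, ran from 1705 to 3455 when 1 library was left out. With 5 libraries a group, the absence of an adjusted call does not show that levels were alike.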

Other observations

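Other brain regions and cell types were measured through their markers. Of the 9 cerebellar neuron markers 6 were higher with Cmpd60 in APPSWE brain, all 4 thalamic markers of at least 10 CPM were higher, and 3 of the 4 hippocampal ones were lower. None of these lists had a member at p below 0.01. In 20-month brain all 9 cerebellar and all 4 thalamic markers were lower, while 8 of the 9 striatal markers were higher. Oligodendrocyte precursor markers were higher in 4 of 5 cases and endothelial markers in 4 of 7, with none at p below 0.05.

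Of the 4 genes the study names for cognition, all were lower in littermates given Cmpd60 and 2 of 4 were lower in 20-month brain. Astrocyte markers were higher in 8 of 8 cases in littermates and in 3 of 8 in APPSWE brain. The pituitary hormone genes summed to 386 CPM in littermate Cmpd60 library s157, the highest of the 20 libraries. The differences between these directions were not tested as lists.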
